A study of Mus musculus with 3 samples.

Results

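The genes of voltage-gated and related potassium, calcium and sodium channels, of the transient receptor potential (TRP) channels of the C, M and V families, and of the STIM and Orai proteins were followed in leukocytes sorted from tumour-draining lymph nodes of mice. Members were chosen by gene symbol alone (Kcn, Scn followed by a digit, Cacn, Trpc, Trpm, Trpv, Orai, Stim1 and Stim2), which took 152 of the 17857 genes in the count table. Of these, 148 are genes of channel subunits, sensors or regulators. The other 4 only carry a channel's name: the noncoding RNAs Kcnq1ot1, Kcnmb4os2 and Trpc5os, and Trpc4ap, a protein that binds a TRP channel. The 3 libraries form 1 group and come from 3 repeats of the experiment, here replicates 1, 2 and 3. They come from C57BL/6 mice (C57BL/6J by the strain label) that carried untreated B16F10 melanomas on both thighs. Lymph nodes were taken on day 14 and pooled, and cells with Ly6C and c-kit but without CD11c were sorted. The design holds no control population. How many mice stand behind each library is not given, and the p-values reflect the spread between the 3 repeats, part of which may be technical.

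Ion channels set the membrane voltage and let calcium into the cell. In lymphocytes, engagement of the antigen receptor empties the calcium store of the endoplasmic reticulum, STIM proteins sense the loss, and they open Orai channels in the plasma membrane (store-operated calcium entry). Potassium channels keep the membrane negative and so maintain the electrical pull on calcium, while most voltage-gated sodium and calcium channels are known from nerve and muscle.

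Levels are given in CPM, read counts scaled to library size, and, wherever genes are compared with each other, in CPM per kilobase of the gene length in the table, as mean ± SD over the 3 libraries (n = 3). The libraries held 9077195 to 13885509 counts, and channel subunits took 0.130 to 0.153% of them. Olfactory receptor genes, which leukocytes rarely use, served as a measure of background: the 95th percentile of these 578 genes was 0.906, 0.151 and 0.320 CPM per kilobase in replicates 1, 2 and 3, so background was highest in replicate 1. Ptprc (CD45) was read at 484 ± 67.6 and all 8 T cell markers lay above 10 CPM per kilobase, and of the genes of the sort Ly6c2 was read at 72.4 ± 70.8, Ly6c1 at 8.30 ± 4.96, Kit at 1.36 ± 0.470 and Itgax, the gene of CD11c, at 7.80 ± 2.57. The labels call the cells precursors, and the marker levels do not separate such cells from T cells sorted with them. None of 5 nerve cell markers measured lay above 1 CPM per kilobase (Snap25 at 0, 0 and 0.0358). In bulk RNA, fewer cells of a type and less RNA per cell cannot be told apart.

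Most of the family was read near background, and a short list of genes carried the rest. In edgeR's quasi-likelihood test against a reference of 1 CPM, with Benjamini-Hochberg adjustment over 15490 genes tested, 39 of the 148 subunits lay above it (41 of all 152 members, against 68.6% of all genes tested). Against 1 CPM per kilobase 24 subunits passed (26 members, against 62.5% of genes tested), and against 10 CPM per kilobase 9 subunits passed (10 members, against 30.9%). On the other side, 93 subunits lay below 10 CPM per kilobase (94 members, against 37.4%). Under the filter of 10 counts in total, 132 members were tested, and the 20 others count here as not passing. The median over all 148 subunits was 0.269 CPM per kilobase, beside 3.28 over all 17857 genes and 0.0620 over the olfactory receptor genes. In all 3 libraries together, 32 subunits exceeded the olfactory 95th percentile (34 members, against 69.9% of genes tested). Without replicate 1, where that percentile was highest, 45 members did. The share of all genes under this looser rule was not counted, so the rise cannot be read as particular to channels.

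**Figure D1:**
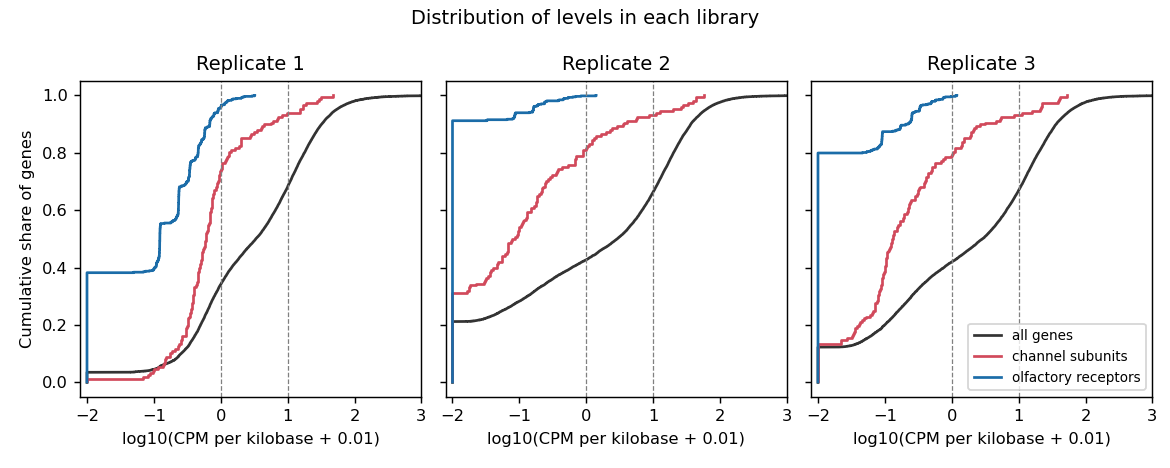
Cumulative share of genes (y axis) at or under each level, log10 of CPM per kilobase plus 0.01 (x axis), in each of the 3 libraries, for all genes, the 148 channel subunits and 578 olfactory receptor genes. Dashed lines mark 1 and 10 CPM per kilobase. From 1 CPM per kilobase up to the highest channel gene the channel curve lies between the others, and the olfactory curve has the smallest share at 0 in replicate 1.

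The 9 subunit genes above 10 CPM per kilobase were Kcnn4, Kcnab2, Trpm7, Stim1, Orai2, Trpv2, Kcna3, Stim2 and Orai1. By description, they held 72.6% of the CPM per kilobase summed over all 148 subunits (60.4, 80.1 and 77.0% in replicates 1, 2 and 3). Store-operated calcium entry supplied 4 of them, the potassium genes 3 and the TRP channels 2. Voltage-gated calcium and sodium channel genes supplied none.

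**Figure D2:**
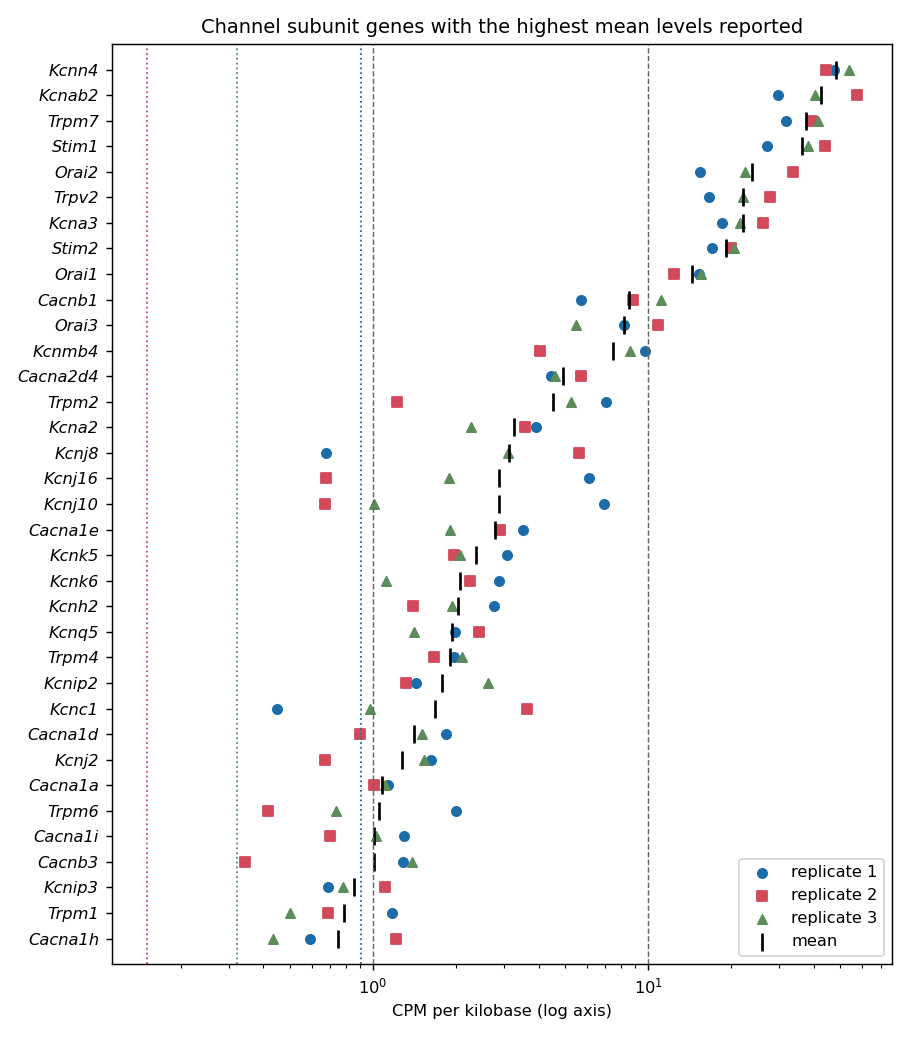
CPM per kilobase (x axis, log scale) of 35 channel subunit genes with the highest means among those reported, 1 row per gene, with 1 symbol per library and a bar at the mean. Dashed lines mark 1 and 10 CPM per kilobase, and dotted lines the olfactory 95th percentile of each library. In all 3 libraries the 9 highest genes lie above 10 CPM per kilobase.

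All 5 genes of store-operated calcium entry lay above 1 CPM per kilobase, and the order of their levels depended on the gene length used. Stim1, the main sensor of the calcium store, was read at 27.1, 43.8 and 38.2 CPM per kilobase in replicates 1, 2 and 3 (36.4 ± 8.52, edgeR adjusted p = 9.33e-06 against 10 CPM per kilobase). Stim2, the sensor that responds to smaller losses of stored calcium, was read at 17.0, 19.9 and 20.5 (19.2 ± 1.89, edgeR adjusted p = 4.28e-04). Stim2 was thus even between libraries, while Stim1 was lowest in replicate 1. Stim1 lay above Stim2 in each library by the deposited lengths and below it in each by exon lengths from GENCODE (12.7 ± 2.97 against 18.3 ± 1.80 CPM per kilobase). Of the channel subunits, Orai2 was read at 15.4, 33.6 and 22.6 CPM per kilobase (23.8 ± 9.15, edgeR adjusted p = 6.20e-04). Orai1, the subunit on which calcium entry in T cells is known to depend most, was read at 15.3, 12.5 and 15.5 (14.4 ± 1.71, edgeR adjusted p = 0.0186). Orai3 was lower, at 8.15, 10.8 and 5.48 (8.15 ± 2.67), above 1 CPM per kilobase (edgeR adjusted p = 2.20e-07) but not separated from 10 (0.277). The Orai1 call against 10 CPM per kilobase was lost without replicate 1 (edgeR adjusted p = 0.0554) and without replicate 3 (0.138). With the GENCODE lengths, Orai1 (edgeR adjusted p = 0.2005) and Stim1 (0.0897) no longer passed. In mm10, Stim1 (Entrez gene 20866) spans chromosome 7, 102261514 to 102437319, and Orai1 (Entrez gene 109305) chromosome 5, 123015074 to 123030452.

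Among potassium channel pore genes, the pair for which T cells are best known stood at the top. Kcnn4 encodes KCa3.1, which opens when calcium rises, and had the highest level of all subunits by the deposited lengths, at 47.3, 44.3 and 53.5 CPM per kilobase (48.4 ± 4.74, edgeR adjusted p = 6.58e-07 against 10 CPM per kilobase). That is the 92.4th percentile of the genes tested. Kcna3 encodes Kv1.3, which opens when the membrane depolarises, and was read at 18.5, 26.2 and 21.6 (22.1 ± 3.86, edgeR adjusted p = 2.22e-04). Both genes lay above 10 CPM per kilobase in every library. With GENCODE exon lengths Kcnn4 was read at 19.3 ± 1.89, below Kcnab2 (28.8 ± 9.48), Trpm7 (23.7 ± 3.23) and Kcna3 (22.9 ± 3.999). Kcnab2, a beta subunit that binds Kv1 channels inside the cell, was read at 29.7, 57.4 and 40.3 CPM per kilobase (42.5 ± 14.0, edgeR adjusted p = 8.79e-06), lowest in replicate 1. Its relative Kcnab1 had 7, 0 and 4 counts. Kcna3 has no intron in the annotation: its span in mm10 (Entrez gene 16491, chromosome 3, 107036162 to 107038129) equals its length of 1968 bases. Kcnn4 (Entrez gene 16534) spans chromosome 7, 24369826 to 24385212.

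The promoters of these leading genes are of different kinds, and 4 windows from RefSeq (GRCm38.p6, the assembly of mm10) are shown for that reason. Each covers 250 bases before to 50 after an annotated start, written 5′ to 3′ along the gene's + strand with CG dinucleotides in capitals.
Kcna3, chr3:107035912-107036211: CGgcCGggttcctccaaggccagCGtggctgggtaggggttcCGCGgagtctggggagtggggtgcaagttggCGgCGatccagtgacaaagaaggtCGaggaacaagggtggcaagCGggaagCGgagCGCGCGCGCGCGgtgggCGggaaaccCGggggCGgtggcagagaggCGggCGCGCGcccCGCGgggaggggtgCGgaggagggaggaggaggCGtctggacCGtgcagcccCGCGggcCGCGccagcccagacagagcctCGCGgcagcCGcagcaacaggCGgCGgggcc
Kcnn4, chr7:24370013-24370312: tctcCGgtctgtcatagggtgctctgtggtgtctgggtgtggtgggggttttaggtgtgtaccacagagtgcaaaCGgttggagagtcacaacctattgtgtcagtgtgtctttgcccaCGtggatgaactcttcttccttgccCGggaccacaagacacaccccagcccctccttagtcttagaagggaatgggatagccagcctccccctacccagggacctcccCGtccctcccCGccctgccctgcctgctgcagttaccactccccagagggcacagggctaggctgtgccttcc
Stim1, chr7:102267569-102267868: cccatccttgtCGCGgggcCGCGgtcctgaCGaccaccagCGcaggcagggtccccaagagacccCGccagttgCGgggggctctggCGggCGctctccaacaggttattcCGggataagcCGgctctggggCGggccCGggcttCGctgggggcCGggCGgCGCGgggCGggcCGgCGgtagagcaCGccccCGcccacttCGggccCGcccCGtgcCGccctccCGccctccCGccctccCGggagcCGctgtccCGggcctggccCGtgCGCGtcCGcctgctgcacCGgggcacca
Trpv2, chr11:62574236-62574535: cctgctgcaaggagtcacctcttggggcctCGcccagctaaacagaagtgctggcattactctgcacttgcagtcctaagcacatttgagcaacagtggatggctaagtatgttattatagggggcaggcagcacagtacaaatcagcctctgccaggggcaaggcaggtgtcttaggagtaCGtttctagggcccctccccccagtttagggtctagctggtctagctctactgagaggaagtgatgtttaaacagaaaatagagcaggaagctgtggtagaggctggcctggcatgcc
The windows hold 37 CG dinucleotides in Kcna3 and 38 in Stim1, but 6 in Kcnn4 and 2 in Trpv2, for which the first of 3 annotated windows is shown. The richest window of Trpv2 held 7. Those of the other leading subunit genes, Kcnab2, Trpm7, Orai2, Stim2 and Orai1, held 25, 35, 24, 39 and 36, so most of the leading genes had a CG-rich window. Which annotated start the cells used was not measured. Over members with a window, the richest window per gene held a median of 21 CG dinucleotides in the 23 members above 1 CPM per kilobase and 16 in the 81 that were tested and not above it. The same medians over all genes were 23 (7669 genes) and 12 (4300 genes), so a gap of the same direction runs through the whole table. The letters GGGCGG, on either strand, were found in 17 of the 23 members above 1 CPM per kilobase and 44 of the 81 others (73.9% and 54.3%). The same shares over all genes were 69.5% and 50.2%, close to those of the members. Of all 32851 windows, 35.7% held these letters. Here and below, a gene counts if any of its windows holds the letters, so shares of genes and of single windows are different measures. CCGGAAGT, on either strand, was found in 0 of 120 members with a window, beside 10.5% of all genes above 1 CPM per kilobase, 2.28% of those tested and not above it, and 3.89% of all windows.

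The remaining potassium channel genes were low. Of 87 potassium subunits, 12 lay above 1 CPM per kilobase. In the voltage-gated class 4 of 39 passed: after Kcna3 came Kcna2 (3.25 ± 0.867 CPM per kilobase), Kcnh2 (2.03 ± 0.680), which encodes the channel hERG of the heart, and Kcnq5 (1.94 ± 0.510). Kcnmb4, an auxiliary subunit of the large-conductance channel, was read at 9.78, 4.04 and 8.62 CPM per kilobase, whereas Kcnma1, the pore gene it serves, was read at 0.729, 0.0273 and 0.204. With GENCODE exon lengths Kcnmb4 was lower, at 2.96, 1.22 and 2.60, and Kcnma1 was at 0.336, 0.0126 and 0.0940. The exons of Kcnmb4 overlap antisense transcripts, and whether reads were counted by strand is not given. Of the 12 two-pore genes, which carry leak currents, Kcnk5 (2.38 ± 0.611) and Kcnk6 (2.08 ± 0.890) passed. The inward rectifiers Kcnj8, Kcnj16 and Kcnj10 also passed but were uneven between libraries, as described below. Kcnj2, which holds the resting potential of macrophages and muscle, was read at 1.63, 0.668 and 1.53 and was not separated from 1 CPM per kilobase (edgeR adjusted p = 0.380). The calls of Kcnk6 (0.0785) and Kcnh2 (0.0528) were lost without replicate 1.

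TRP channels were represented by Trpm7 and Trpv2. Trpm7, a channel for magnesium and calcium fused to a kinase, was read at 31.8, 39.4 and 41.5 CPM per kilobase (37.6 ± 5.11, edgeR adjusted p = 4.79e-06 against 10 CPM per kilobase). Its libraries lay close together. Trpv2, a cation channel of the plasma membrane and endosomes in leukocytes, was read at 16.7, 27.7 and 22.1 (22.2 ± 5.51, edgeR adjusted p = 3.43e-04). Trpm2, a channel opened by ADP-ribose and known from neutrophils and macrophages, was read at 7.04, 1.22 and 5.25 (4.50 ± 2.98), above 1 CPM per kilobase (edgeR adjusted p = 1.67e-04) and lowest in replicate 2. Trpm4, a calcium-activated channel for sodium, was even at 1.97, 1.66 and 2.11 (1.91 ± 0.229, edgeR adjusted p = 0.00591). Its call was lost without replicate 3 (0.0920) and with GENCODE exon lengths, where it lay at -0.42 relative to the reference on the log2 scale (0.210). Trpm6, the close relative of Trpm7, was read at 2.00, 0.416 and 0.735 and was not separated from 1 CPM per kilobase (edgeR adjusted p = 0.901). All 6 TRPC genes had means of 0.235 to 0.434 CPM per kilobase, and none passed. Trpv4 was read at 0.917, 0.155 and 0.306.

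Of 23 genes named as voltage-gated calcium channel subunits (Cacn) 3 lay above 1 CPM per kilobase, with a beta and an alpha2delta subunit at higher means than any pore gene. Cacnb1, a beta subunit that carries pores to the membrane, was read at 5.68, 8.80 and 11.1 CPM per kilobase (8.53 ± 2.72, edgeR adjusted p = 1.11e-07 against 1 CPM per kilobase). Cacna2d4, an alpha2delta subunit, was read at 4.44, 5.69 and 4.61 (4.91 ± 0.678, edgeR adjusted p = 2.41e-07). Of the 10 pore genes, Cacna1e alone passed, at 3.51, 2.90 and 1.90 (2.77 ± 0.813, edgeR adjusted p = 4.42e-05), a call lost with GENCODE exon lengths (0.0560). Next came Cacna1d (1.41 ± 0.479), Cacna1a (1.08 ± 0.0670) and Cacna1i (1.01 ± 0.298), which were not separated from 1 CPM per kilobase. Cacna1s and Cacna1c, the pores of skeletal and heart muscle, were read at 1.23, 0.0570 and 0.546 and at 0.479, 0.00788 and 0.176, and Cacna1f, a pore of the retina also studied in T cells, at 0.452, 0.164 and 0.125. Each of these was highest in replicate 1, where the olfactory 95th percentile was 0.906. Cacna1s exceeded the percentile of the library in replicates 1 and 3 and Cacna1f in replicate 2, and none of them did so in all 3 libraries. None of the 5 genes named as gamma subunits (Cacng) in the table passed, and Cacng6 had no count, as had Kcne1l. Whether each of these acts in a calcium channel is not shown by the name. With 0 counts observed, levels of up to 0.317, 0.214 and 0.228 CPM (3 counts) remain possible in replicates 1, 2 and 3 from counting error alone.

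No sodium channel gene passed against 1 CPM per kilobase, whether pore (0 of 9) or beta subunit (0 of 4). Pore genes had means of 0.147 to 0.530 CPM per kilobase. Long transcripts gave 3 of them a call on the scale of plain CPM: Scn4a, Scn3a and Scn8a lay above 1 CPM but not above the olfactory 95th percentile in all 3 libraries.

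**Figure D3:**
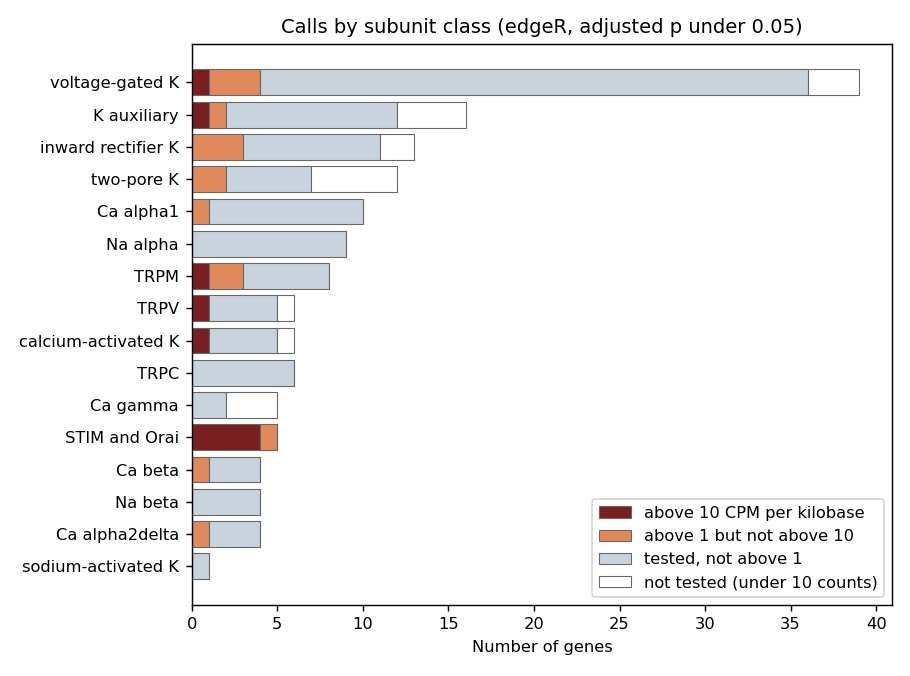
Number of genes (x axis) in each class of channel subunit (y axis), divided by edgeR call: above 10 CPM per kilobase, above 1 but not above 10, tested and not above 1, or not tested because the 3 libraries held under 10 counts. STIM and Orai genes are the class in which all 5 members passed against 1 CPM per kilobase.

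Several genes differed widely between libraries, and marker genes of other cell types differed with them. Kcnj10 and Kcnj16, whose products are known to join into 1 channel, were both highest in replicate 1: Kcnj10 at 6.92, 0.673 and 1.01 CPM per kilobase and Kcnj16 at 6.08, 0.675 and 1.89. Their calls against 1 CPM per kilobase (edgeR adjusted p = 0.0225 and 0.0112) were lost without replicate 1 (0.516 and 0.481) and with the DESeq2 Wald test, limma voom or robust empirical Bayes. Kcnk13, a two-pore channel known from microglia, was read at 1.97, 0.0458 and 0.146. In the same library all 6 erythroid, all 4 platelet and all 5 B cell markers and 4 of 6 monocyte and macrophage markers were highest. So were all 4 melanoma, all 5 striated muscle and 5 of 6 stroma and endothelium markers. Those lists had medians of 0.473, 0.281 and 0.263 CPM per kilobase, near background. In the striated muscle list, however, Tnnt3 (5.18, 2.93 and 2.30) and Tnni2 (4.28, 0.962 and 3.53) exceeded the olfactory 95th percentile in each library. Of these, Tnnt3 also lay above 1 CPM per kilobase by the edgeR call. Beside these counts, 45.2% of all genes tested were highest in replicate 1. The share was 85.9% of the genes tested that did not exceed the olfactory 95th percentile in all 3 libraries. Summed CPM per kilobase over the erythroid list was 4993, 64.4 and 355 in replicates 1, 2 and 3, over the B cell list 112, 47.9 and 66.9, over the platelet list 21.5, 1.73 and 13.3, and over the monocyte and macrophage list 732, 617 and 341. The melanoma list summed to 3.63, 0.268 and 2.38, the striated muscle list to 10.9, 4.11 and 5.91, and the stroma and endothelium list to 3.47, 0.639 and 0.810. Epor and Gp9 were at 0 in replicate 2.

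Kcnj8, a pore subunit of channels that close when ATP is plentiful, went the other way, at 0.676, 5.61 and 3.09 CPM per kilobase (edgeR adjusted p = 0.00645 against 1 CPM per kilobase, 0.181 without replicate 2). Kcnc1, a fast voltage-gated channel, was read at 0.449, 3.63 and 0.977 and was not separated from it (edgeR adjusted p = 0.180). All 7 markers of CD8 T cells and natural killer cells were highest in replicate 2 as well, beside 32% of all genes tested. Their summed level was 54.4, 778 and 269, with no marker at 0. For Trpm2, low in replicate 2, the neutrophil list was lowest there too (230, 59.8 and 1101, with Ly6g at 0 in replicates 1 and 2). The highest library of that list was replicate 3, and that of Trpm2 was replicate 1. Of the monocyte and macrophage markers, C1qa (80.1, 1.98 and 12.1), Mrc1 (43.8, 1.57 and 6.51) and Apoe (268, 50.6 and 92.9) were highest in replicate 1 and lowest in replicate 2. The others, Lyz2, Csf1r and Ccr2, were lowest in replicate 3. The part of these cells in the channel levels was not tested. Of 97 subunits that were tested and did not exceed the olfactory percentile in all libraries, 87 were highest in replicate 1, near the 85.9% of all such genes. Of the 32 that exceeded it, 16, 8 and 8 were highest in replicates 1, 2 and 3, beside 27.7%, 43% and 29.3% of all genes tested that exceeded it. The 5 genes with the largest spread, among those with a mean of at least 1 CPM, were Kcnk13, Scn11a, Cacna1g, Scn3a and Scn8a, all highest in replicate 1 and, apart from Kcnk13, at 0.873 to 1.03 CPM per kilobase there, near the background of that library.

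**Figure D4:**
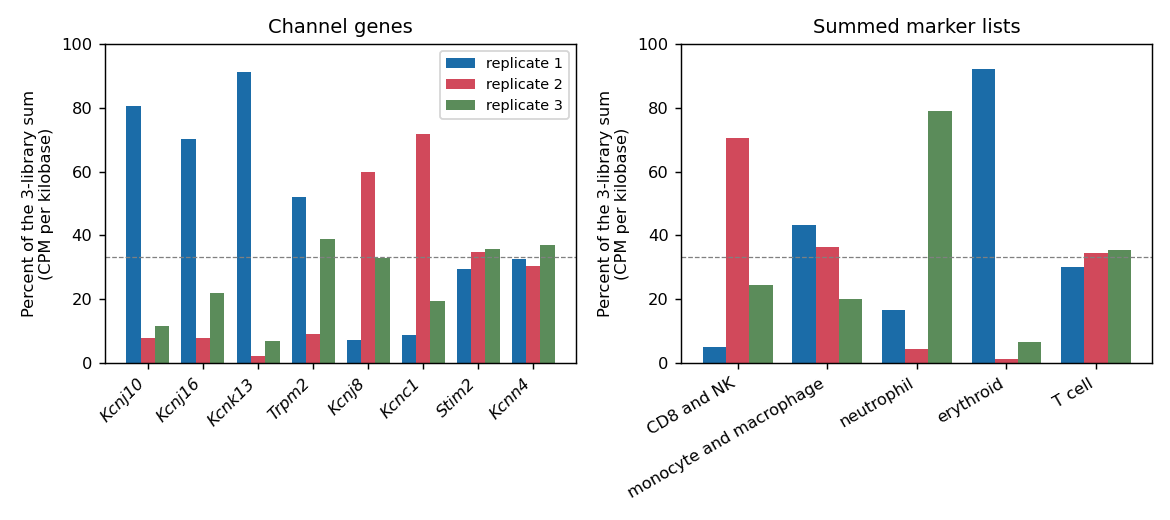
Percent of the sum over the 3 libraries (y axis, from CPM per kilobase) found in each replicate, for 8 channel genes (left) and 5 summed marker lists (right); the dashed line marks equal shares. Kcnj10, Kcnj16 and Kcnk13 lie mostly in replicate 1, and Kcnj8 and Kcnc1 mostly in replicate 2, while Stim2 and Kcnn4 are close to equal shares.

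Genes with related roles were compared within each library as 8 pairs, in log2(CPM per kilobase + 0.5) with the deposited lengths. Stim1 exceeded Stim2 by 0.66, 1.12 and 0.88 in replicates 1, 2 and 3 (0.88 ± 0.23). Kcna3 lay under Kcnn4 in every library (-1.33, -0.75 and -1.29, mean -1.12 ± 0.33). The Orai genes were ordered less firmly: Orai1 minus Orai2 was -0.01, -1.39 and -0.52 (-0.64 ± 0.70), and Orai1 minus Orai3 was 0.87, 0.19 and 1.42 (0.83 ± 0.62). Wide gaps separated Trpm7 from Trpm4 (3.98 ± 0.25), Trpv2 from Trpv4 (4.61 ± 0.93) and Kcnab2 from Kcnab1 (6.09 ± 0.76), and a small one Cacna1d from Cacna1s (0.90 ± 0.45). The means of Trpv4 (0.459) and Kcnab1 (0.116 CPM per kilobase) lie under the added 0.5, so the size of their gaps depends on that value. Each pair had the same sign in all 3 libraries, with an exact two-sided permutation p = 0.25 for each (Benjamini-Hochberg over the 8 pairs, 0.25), and with n = 3 no lower value can be reached. Between Orai1 and Orai2 the difference in replicate 1 was within 0.01 of 0, so their order does not hold beyond the spread. With GENCODE exon lengths, Stim1 minus Stim2 turned to -0.76, -0.31 and -0.55 (-0.54 ± 0.22) and Kcna3 minus Kcnn4 to 0.03, 0.61 and 0.06 (0.23 ± 0.33), so the order within either pair rests on the length used. Orai1 minus Orai2 also changed sign in replicate 1 (0.34).

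**Figure D5:**
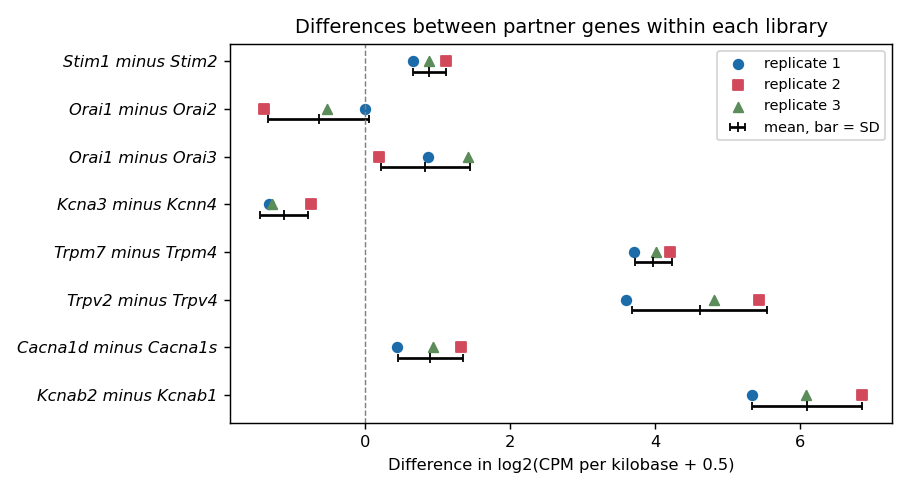
Difference between the genes of each pair in log2(CPM per kilobase + 0.5) (x axis), with 1 symbol per library and, under it, the mean with a bar of 1 SD. Lengths are the deposited ones, and positive values mean that the first gene is higher; Orai1 minus Orai2 reaches the 0 line in replicate 1.

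Genes that handle the same ions were read next to the channels. In a list of calcium stores, pumps and exchangers, 20 of 28 measured genes lay above 1 CPM per kilobase and 14 above 10 CPM per kilobase, and 12 lay below 10. Saraf, which limits store-operated entry, was read at 115 ± 10.7 CPM per kilobase. The inositol trisphosphate receptors, which release stored calcium, were read at 26.7 ± 6.05 (Itpr1), 76.5 ± 13.7 (Itpr2) and 39.3 ± 11.4 (Itpr3), all above 10 CPM per kilobase. The ryanodine receptors of muscle, Ryr1, Ryr2 and Ryr3, were read at 0.389 to 0.854 and did not pass against 1. Of the pumps that refill the store or clear calcium, Atp2a3 (65.6 ± 15.1), Atp2b1 (47.0 ± 10.9) and Atp2a2 (24.0 ± 4.42) passed against 10 CPM per kilobase. Plcg1, the phospholipase that acts below the T cell receptor, was read at 66.1 ± 16.2. In a list of other cation channels and the sodium pump, 16 of 30 genes lay above 1 and 7 above 10 CPM per kilobase, among them the sodium pump subunit gene Atp1b3 (179 ± 22.5) and the proton channel gene Hvcn1 (32.2 ± 1.97). The mechanical channel Piezo1 was read at 9.34, 21.2 and 12.9 and was not separated from 10 (edgeR adjusted p = 0.0511). Beside these counts, 62.5% and 30.9% of all genes tested lay above 1 and above 10 CPM per kilobase.

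Of the 4 names that are no channels, Trpc4ap and Kcnq1ot1 lay above 1 CPM per kilobase. Trpc4ap, known as an adaptor of a ubiquitin ligase, was read at 40.8, 60.6 and 52.4 CPM per kilobase (51.3 ± 9.93, edgeR adjusted p = 1.07e-06 against 10 CPM per kilobase), although no TRPC channel passed even against 1. Kcnq1ot1, a nuclear RNA that silences its neighbours on the paternal chromosome, had the most counts of all members (4744, 12102 and 9873) over a length of 83437 bases, which gave 6.01, 10.3 and 8.99 CPM per kilobase. It is transcribed antisense to Kcnq1, which had 24, 0 and 1 counts. Trpc5os was read at 0.944, 0.299 and 0.276 CPM per kilobase and was not separated from 1 (edgeR adjusted p = 0.337), and Kcnmb4os2, with 1, 0 and 1 counts, was not tested.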

How the data were processed

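The authors deposited raw read counts per gene for the 3 libraries in 1 table, which also lists gene lengths. Per the labels' protocols, 8 ng of RNA entered a low-input stranded kit for total RNA. STAR 2.75, featureCounts, bcl2fastq, DESeq2 1.18.1 and mm10 are named, without roles, per the submitters' processing notes. For the annotation, strand setting and gene filter, the entry is "not given in the sources used here". In GENCODE M21, 43 members have exons that overlap an antisense gene.

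Totals were 9077195, 13885509 and 13861430 counts, and no pair of libraries agreed within sampling noise. CPM used TMM factors (edgeR 4.0.16). Genes with at least 10 counts in total (15490) were tested against 1 CPM, 1 CPM per kilobase and 10 CPM per kilobase. The test was edgeR's quasi-likelihood F statistic with an intercept alone and the reference in the offsets, two-sided, with Benjamini-Hochberg adjustment over all genes tested and a threshold of 0.05. It was computed from edgeR's fitted object, since the package's own test function takes no such design, and was tested on simulated data. Named members were all STIM and Orai genes, the 25 highest means per kilobase, the highest of each class, the 5 with the largest spread, the genes of the pairs and a list known from leukocytes; others are named as examples. Members and lists were chosen with earlier results of these data known. Cacng1, Cacng4, Nefl, Stimate, Tmem110 and Efcab4b were not analysed here. Alternatives used DESeq2 1.42.0, limma 3.58.1, other scalings, filters and lengths, and left out each replicate. Results for some genes are not reported here.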

Additional observations from a re-analysis of the deposited data

How the results depend on the processing

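The number of members above 1 CPM was 41 and ranged from 38 (limma voom, and without replicate 1) to 50 (without replicate 2). Over all genes tested it was 10625 and ranged from 10281 (without replicate 1) to 10809 (without replicate 2). The number of members above 1 CPM per kilobase was 26 and ranged from 23 (without replicate 1) to 27. The number above 10 CPM per kilobase was 10 and ranged from 8 to 10. Over all genes tested these numbers were 9681 (9172 to 9870) and 4794 (3259 to 5377), both lowest with GENCODE exon lengths. Of the 26 named members above 1 CPM per kilobase, 19 kept the call under all 12 alternatives, as did 8 of 10 above 10 CPM per kilobase. Kcnj10 lay 1.51 above 1 CPM per kilobase on the log2 scale, -0.28 without replicate 1 and up to 1.97 without another replicate; Trpm4 lay 0.93 above it and -0.42 with GENCODE exon lengths, an alternative chosen after seeing the data. The cause was not tested. The number of members below 10 CPM per kilobase was 94 and ranged from 30 to 118. It was 30 with filterByExpr, where fewer genes are tested, 35 without replicate 3 and 118 with limma voom. Over all genes it was 5795 of 15490 tested, 3737 of 11056 with filterByExpr, 2249 of 14979 without replicate 3 and 8474 of 15490 with limma voom. Totals without mitochondrial genes and Malat1 raised the median gene by 0.25 on the log2 scale. Of the 8 pairs, 6 kept the sign of their mean under every alternative run for them; with GENCODE exon lengths, added after seeing the data, Stim1 minus Stim2 went from 0.88 to -0.54 and Kcna3 minus Kcnn4 from -1.12 to 0.23, by the lengths alone. All 8 kept it under the others. The number of members above the olfactory percentile was 34, and 26 at the 99th percentile, for which the share of all genes was not counted. No paired analysis was possible because the labels give 1 group. Depth limits genes of few counts. Replicate 1 had the fewest counts and the highest background, but also the fewest genes at 0: 632, beside 3788 and 2199 in replicates 2 and 3. Of the members, 2, 47 and 20 were at 0 in replicates 1, 2 and 3.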
